A study of Mus musculus with 8 samples.

Results

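The 10 genes described here make, break down, bind or sense retinoic acid: the 3 retinaldehyde dehydrogenases Aldh1a1, Aldh1a2 and Aldh1a3, the 3 retinoic acid hydroxylases Cyp26a1, Cyp26b1 and Cyp26c1, the 3 receptors Rara, Rarb and Rarg, and the binding protein Crabp1. They were chosen by gene symbol among the 32285 features of the count matrices, and all 10 were found. The study profiled nuclei of the petrous temporal bone (PTB), which encloses the inner ear and the subarcuate fossa, and of the paraflocculus and flocculus (PF/F), the cerebellar lobules beside it. It compared wild-type (WT) mice with Tbx1+/- mice, heterozygous for the T-box transcription factor Tbx1, to ask how Tbx1 dosage affects both tissues. Mice were P5.5 littermates, the study's mice were of both sexes, and each of the 8 libraries pooled 5 mice. Each tissue and genotype had 2 libraries, numbered by batch, so that the libraries and not the nuclei were the replicates. Bone was frozen and pulverised before nuclei were released, whereas PF/F tissue was chopped without pulverising, and batch 2 repeated the whole procedure with other mice. P-values therefore measure the spread between these pooled libraries. Whether the PTB and PF/F libraries of a batch and genotype came from the same mice is not stated. Tests between the tissues treated the 8 libraries as separate.

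Retinoic acid is a small, diffusible derivative of vitamin A. The Aldh1a enzymes oxidise retinaldehyde to it, and the Cyp26 enzymes hydroxylate and inactivate it, so that the balance of both sets the level a cell meets. It acts by binding RAR receptors, which sit on DNA as pairs with RXR receptors at direct repeats of a short half-site, and Rarb and Cyp26a1 are textbook targets induced by the signal itself. In cartilage, receptor signalling affects how chondrocytes mature, and in the developing brain the meninges are a known source of retinoic acid.

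Rarb and Cyp26a1 were the members with such a repeat in the promoter. Promoter windows from RefSeq (GRCm38.p6), 250 bases before to 50 after the start, existed for 9 of the 10 members, with 14 windows in all. They were searched on both strands for DR5, a direct repeat of 6-base half-sites with 5 bases between, where a half-site read AGGTCA or the variant AGTTCA, or read GGGTCA or its variant GGTTCA. Of all 32851 promoter windows, 32 (0.0974%) held such a repeat, and those of Rarb and Cyp26a1 were among them. The stretch of Rarb is chr14:16575508-16575534 on the minus strand, and that of Cyp26a1 is chr19:37697771-37697797 on the plus strand, where the repeat reads on the opposite strand. The half-sites are in capitals, and the stretches are shown because they are the shared sequence feature of these genes.
Rarb: ggaagGGTTCAccgaaAGTTCActcgc
Cyp26a1: aaagaTGAACTttgggTGAACTaattt
The repeat spans bases 53 to 37 before the start of Rarb and bases 32 to 16 before that of Cyp26a1. The other 7 members with a window had no such letters in it. A match is a description of sequence and not a measured binding site.

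Unique molecular identifiers (UMIs, 1 per captured RNA molecule) were summed over the annotated nuclei of each cell type in each library, and levels are counts per 1000000 UMIs (CPM) of those sums. The authors' annotation holds 31076 PTB nuclei in 15 types and 48237 PF/F nuclei in 16 types. Annotated nuclei had median depths of 3853 to 4758 UMIs in PTB libraries and 2610 to 3503 in PF/F libraries. Any 2 libraries shared 35 to 94 barcodes, 0.313% to 0.652% of the smaller library. Summed over the annotated PTB nuclei, the targeted gene Tbx1 had levels of 38.9 and 39.4 CPM in the WT and 26.3 and 35.7 CPM in the Tbx1+/- libraries, with a log2 change of -0.34 (SE 0.17, adjusted p = 1.00, edgeR). Counts from 3′ ends need not follow the deleted sequence, and this was not tested. The paper reports a significant reduction of Tbx1 in the main bone cell populations of Tbx1+/- mice. Defining markers matched the main labels: Acan was at 1333 CPM in matured chondrocytes, Slc1a3 at 2318 CPM in PF/F astroglia, and Dcn at 581 CPM in PF/F meningeal nuclei. Free RNA was not removed from the counts, and osteoclasts, which should lack it, held 2136 CPM of Col1a1. The level in osteoclasts is therefore given beside PTB levels. CPM is per library and is not divided by gene length, so that levels are compared between types and tissues and not between genes.

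The annotated nuclei of the 2 tissues differed. Synthesis genes and receptors were higher in the PTB, and the breakdown enzyme Cyp26b1 was higher in the PF/F. The other breakdown enzymes had low counts and fell below the count filter. Cyp26a1 had UMIs in the PTB only, and Cyp26c1, with 17 UMIs in the PTB and 6 in the PF/F, had too few to compare. All 8 members that passed the filter on low counts were called different between the 4 PTB and 4 PF/F libraries by edgeR (adjusted p under 0.05 and over 1.5-fold), where 60.5% of the 21176 genes tested were called. Calls were 28% of genes with higher levels in the PTB and 32.4% with higher levels in the PF/F. A call is thus common in this comparison, and the sizes below say more than the count. The PTB annotation covers connective tissue, chondrocyte, osteoblast and osteoclast types only, 31076 of 63177 barcodes. Bone immune cells and neurons, which the paper also found, are outside it. The PF/F annotation holds 48237 of 57958 barcodes. The comparison thus sets a part of the bone against most of the PF/F barcodes. Tissue, cell make-up and the way nuclei were released cannot be told apart here.

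Aldh1a1, an enzyme of retinoic acid synthesis also used as a marker of dorsal retina and of some stem cells, was at 61.5 ± 5.43 CPM (SD, n = 4) over all annotated PTB nuclei and 7.63 ± 1.30 CPM (SD, n = 4) over all PF/F nuclei, a log2 difference of 2.99 (SE 0.13, adjusted p = 5.4e-08). Aldh1a2, the main enzyme of the embryo, was at 19.0 ± 2.11 and 2.98 ± 0.695 CPM (SD, n = 4 each), a log2 difference of 2.67 (SE 0.16, adjusted p = 4.1e-07). For both enzymes the lowest PTB library lay above the highest PF/F library. Aldh1a3, the dehydrogenase best known from the developing eye and nose, was at 7.21 ± 1.33 and 0.981 ± 0.295 CPM (SD, n = 4 each), a log2 difference of 2.87 (SE 0.21, adjusted p = 1.3e-06).

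The receptors differed in the same direction. Rara was at 26.3 to 33.6 CPM in the PTB libraries and 4.36 to 4.86 in the PF/F libraries, a log2 difference of 2.71 (SE 0.10, adjusted p = 1.8e-08). Rarb, the receptor induced by its own ligand, was at 124 to 144 CPM and 10.2 to 13.3 CPM, a log2 difference of 3.44 (SE 0.11, adjusted p = 6.2e-09). Rarg, the receptor best known from cartilage, was at 59.1 to 67.2 CPM and 2.36 to 3.53 CPM, a difference of 4.34 (SE 0.13, adjusted p = 4.5e-09). None of the 3 receptors had overlapping ranges.

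Cyp26b1, the main retinoic acid hydroxylase of brain and skeleton, ran the other way. It was at 11.5 and 9.85 CPM in the WT and 9.64 and 9.58 CPM in the Tbx1+/- libraries of the PTB, against 189 and 149 CPM in the WT and 157 and 136 CPM in the Tbx1+/- libraries of the PF/F. The log2 difference of PTB against PF/F was -3.97 (SE 0.10, adjusted p = 2.3e-09). With all barcodes of each library in place of the annotated nuclei it was -2.62. The direction was thus the same, and the size smaller.

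Cyp26a1, the inducible hydroxylase, had 126 UMIs in the annotated PTB nuclei and 0 of 174303641 UMIs in the annotated PF/F nuclei. It fell below the filter on low counts in the fit of both tissues. The PTB sum of 0.825 CPM is at least 47.9-fold higher than the 0.0172 CPM that 3 counts over all PF/F libraries would give, and an exact two-sided permutation test over the 4 and 4 libraries gave p = 0.0286, the smallest it can give. Within the PTB, the 2 batches differed: batch 1 held 1.65 CPM of Cyp26a1 (WT) and 0.814 CPM (Tbx1+/-), and batch 2 held 0.448 and 0.172 CPM. Crabp1, which binds retinoic acid in the cytosol, showed the same batch pattern at 1.92, 2.12, 0.865 and 0.372 CPM in WT 1, Tbx1+/- 1, WT 2 and Tbx1+/- 2. It was called higher in the PTB, with a log2 difference of 2.36 (SE 0.56, adjusted p = 0.0036), although its lowest PTB library lay below the highest PF/F library of 0.424 CPM. Cyp26c1 had 17 UMIs in the PTB and 6 in the PF/F and is too low to describe by type.

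**Figure D1:**
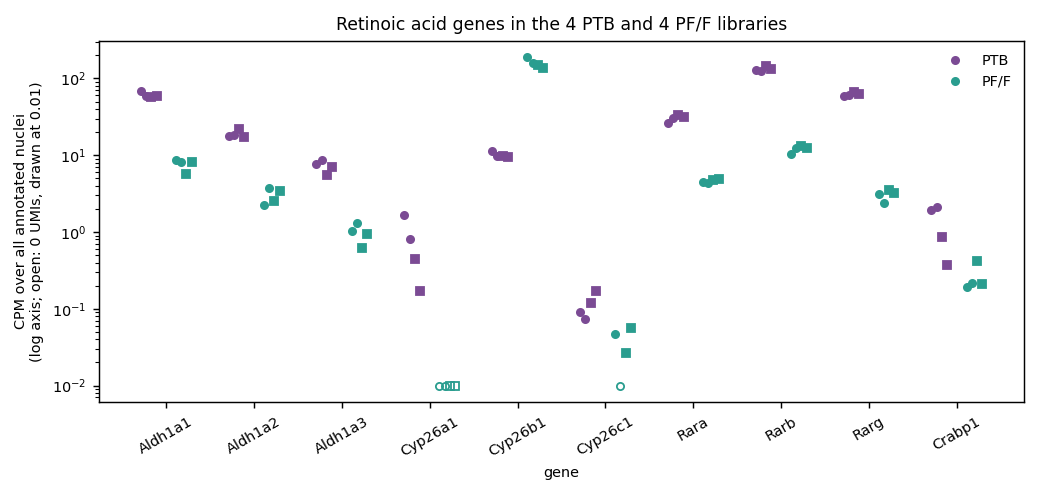
Level of each of the 10 genes in CPM over all annotated nuclei, on a log axis, in the 4 PTB (purple) and 4 PF/F (green) libraries. Circles are batch 1 and squares batch 2, and open symbols are libraries with 0 UMIs, drawn at 0.01. Cyp26b1 is the only gene with every PF/F library above every PTB library, and Crabp1 the only gene whose tissues overlap.

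Around the members, 26 of 31 genes listed for retinoid uptake, retinaldehyde formation, binding, receptor partners and response were tested between the tissues. Of these, 12 were called higher in the PTB, 6 were called higher in the PF/F and 8 were not called. Over all genes tested, 60.5% were called, 28% higher in the PTB and 32.4% higher in the PF/F, so that calls are common here. The median log2 difference of the listed genes was 0.43, against -0.06 over all genes tested. Crabp2, which carries retinoic acid to the receptors, had a log2 difference of 2.35 (SE 0.20). The RXR partners split: Rxra was higher in the PTB (2.55, SE 0.13), Rxrg was higher in the PF/F (-2.74, SE 0.18), and Rxrb was at 0.17 (SE 0.08) and was not called. Dhrs3, which turns retinaldehyde back to retinol, was called at 0.91 (SE 0.08), while Rdh10, which makes retinaldehyde, was under the 1.5-fold needed for a call, at 0.27 (SE 0.10). All adjusted p-values of the called genes were from the same edgeR fit.

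Within the PTB, the 3 synthesis enzymes peaked in different cell types. The annotation divides this tissue into 4 connective tissue types (CT1 to CT4), 6 chondrocyte progenitor types (CP1 to CP6), matured chondrocytes, a hypertrophic chondrocyte and osteoblast class, osteoblasts, matured osteoblasts with osteocytes, and osteoclasts. These types were made from the expression of all genes, the members included, so differences between types are descriptions without a test.

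Aldh1a1 (ENSMUSG00000053279, chromosome 19, 20492715 to 20643465, plus strand of GRCm38) was a gene of chondrocyte progenitors. In CP5 it was at 251 and 264 CPM in the WT and 298 and 286 CPM in the Tbx1+/- libraries, in CP3 at 244, 199, 231 and 209 CPM, and in CP2 at 151, 147, 174 and 159 CPM, in the same order. The next type was CP6 with 101 ± 7.64 CPM (SD, n = 4). In each step from CP5 to CP3, CP2, CP6 and then CT2 (64.8 CPM) the libraries did not overlap. CP1, unlike the other progenitors, was at 15.2 CPM, below the 20.7 CPM of osteoclasts, and the lowest type was osteoblasts at 10.7 CPM. Together the 6 CP types held 79.4% of the PTB UMIs of Aldh1a1. Aldh1a7, a close paralogue, lies next to Aldh1a1, and reads the genes share could not be separated here. The antisense transcript C730002L08Rik overlaps Aldh1a1 on the other strand and had the most similar pattern of the 13110 genes compared (Pearson r = 0.96 over 15 types), followed by Rimklb (0.95) and Car14 (0.92).

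Aldh1a2 (ENSMUSG00000013584, chromosome 9, 71215789 to 71296243, plus strand) was concentrated in CT2 and CP6. In CT2 it was at 127 and 190 CPM in the WT and 127 and 128 CPM in the Tbx1+/- libraries, and in CP6 at 81.8 and 118 CPM in WT and 116 and 106 CPM in Tbx1+/-. CT1 followed at 34.7 ± 12.4 CPM (SD, n = 4), and the remaining 12 types were at 17.6 CPM or less, against 6.50 CPM in osteoclasts. CT2 made up 3.53% of annotated nuclei and held 26.7% of the gene's PTB UMIs. CT2 also differed from the other PTB types in Slc6a13, a transporter of the meninges. Slc6a13 was at 373 CPM there (256 to 500 over libraries), against at most 11.8 CPM as the mean of any other type. This gene was at 696 CPM in PF/F meningeal nuclei. The 5 meningeal markers Dcn, Col1a1, Slc6a13, Foxc1 and Col3a1 together did not set CT2 apart from all CT nuclei, which include it. Their sum in CT2 was 7558 and 3999 CPM in WT and 5305 and 5080 CPM in Tbx1+/-. In all CT nuclei the sum was 6985, 3865, 6186 and 3937 CPM, in the same order. CP6 held 1625 CPM of the synaptic gene Syt1, against at most 404 CPM in another PTB type, while the neuronal genes Rbfox3 and Snap25 were at 4.64 and 30.4 CPM there. The part of meningeal or neuronal nuclei in these levels was not tested. The genes most similar to Aldh1a2 were Vegfd (r = 0.96), Gm40604 (0.93) and Crocc2 (0.92).

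Aldh1a3 (ENSMUSG00000015134, chromosome 7, 66390890 to 66427517, minus strand) was highest in matured chondrocytes. It was there at 35.5 and 31.6 CPM in the WT and 30.0 and 44.4 CPM in the Tbx1+/- libraries, from 5 to 38 UMIs each. CP4 was next at 11.6 ± 2.66 CPM (SD, n = 4), with no overlap. The other types lay between 3.59 and 10.8 CPM, with osteoclasts at 5.16 CPM, and their neighbours in rank overlapped. Matured chondrocytes were the shallowest PTB type, with median depths of 2339 to 2963 UMIs, and Tbx1+/- 1 had 48 nuclei of it. The genes most similar to Aldh1a3 were Csnk2b (r = 0.93), Syf2 (0.87) and Cdkn2d (0.85), each also highest in this type.

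Among the breakdown enzymes, Cyp26b1 (ENSMUSG00000063415, chromosome 6, 84571414 to 84593908, minus strand) peaked in CP3, which also carries Aldh1a1. CP3 was at 72.9 and 49.0 CPM in the WT and 56.0 and 50.6 CPM in the Tbx1+/- libraries. CT2 had a mean of 30.1 CPM, but this rested on Tbx1+/- 2 with 63.4 CPM from 84 UMIs, as the other 3 libraries were at 16.9 to 21.9 CPM. Matured chondrocytes were at 18.8 ± 4.32 CPM (SD, n = 4), and osteoclasts at 6.25 CPM. CP3 and CT2 overlapped in that library. CP6, high in Aldh1a2, was among the lowest types for Cyp26b1, at 4.47 CPM. In CP3 Slc1a3, a glutamate transporter of astroglia, was at 1455 CPM, against 1154 CPM in CP6 and 47.4 CPM in osteoclasts, while Gfap was at 2.29 CPM in CP3. The part of astroglial RNA in the CP3 level was not tested.

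Rarb and Rarg had contrasting places among PTB types. Rarb (ENSMUSG00000017491, chromosome 14, 16430839 to 16819156, minus strand) was highest in CP6, at 461 and 549 CPM in the WT and 543 and 586 CPM in the Tbx1+/- libraries. CP4 followed at 385, 430, 435 and 328 CPM, and CT2 at 329, 334, 302 and 324 CPM, in the same order. CP6 did not overlap CP4, while CP4 and CT2 overlapped. From CP2 at 196 CPM the levels went down to 21.6 CPM in matured chondrocytes, below the 38.0 CPM of osteoclasts.

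Rarg (ENSMUSG00000001288, chromosome 15, 102234938 to 102257517, minus strand) was highest where Rarb was lowest. Matured chondrocytes held 202 and 114 CPM in the WT and 156 and 153 CPM in the Tbx1+/- libraries. The other 14 types lay between 25.8 CPM in osteoclasts and 76.6 CPM in osteoblasts, and matured chondrocytes did not overlap osteoblasts. The genes most similar to Rarg were Ywhaq (r = 0.93), Eif2s2 (0.92) and Nme2 (0.92), each with its highest mean in matured chondrocytes. Whether its peak there is particular to the gene was not tested. Rara (ENSMUSG00000037992, chromosome 11, 98927818 to 98974942, plus strand) was spread most evenly, from 12.4 CPM in CP5 to 41.0 CPM in CT1, with 17.9 CPM in osteoclasts and every pair of neighbours in its order overlapping. The low count members followed no type closely, with CT1 highest for both Crabp1 at 4.93 ± 2.05 CPM and Cyp26a1 at 2.44 ± 1.71 CPM (SD, n = 4 each).

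Over the 15 PTB types, the log2 levels of Aldh1a2 and Rarb had r = 0.64, and those of Rarb and Rarg r = -0.36. Aldh1a2 and Cyp26b1 had r = 0.41. Tbx1 had r = 0.49 with Rarb, the highest of the 10 members, and -0.29 with Cyp26b1, the lowest. These values describe 15 types that share libraries and free RNA, and the pairs of members were chosen after their levels were seen. Among the other retinoid genes, CT2 was at 12.0 CPM of Crabp2 and 11.5 CPM of Stra6, the retinol uptake receptor, each with its lowest library above the mean of all annotated PTB nuclei (3.02 and 1.82 CPM). In CP6 the same genes were at 6.98 and 7.55 CPM.

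**Figure D2:**
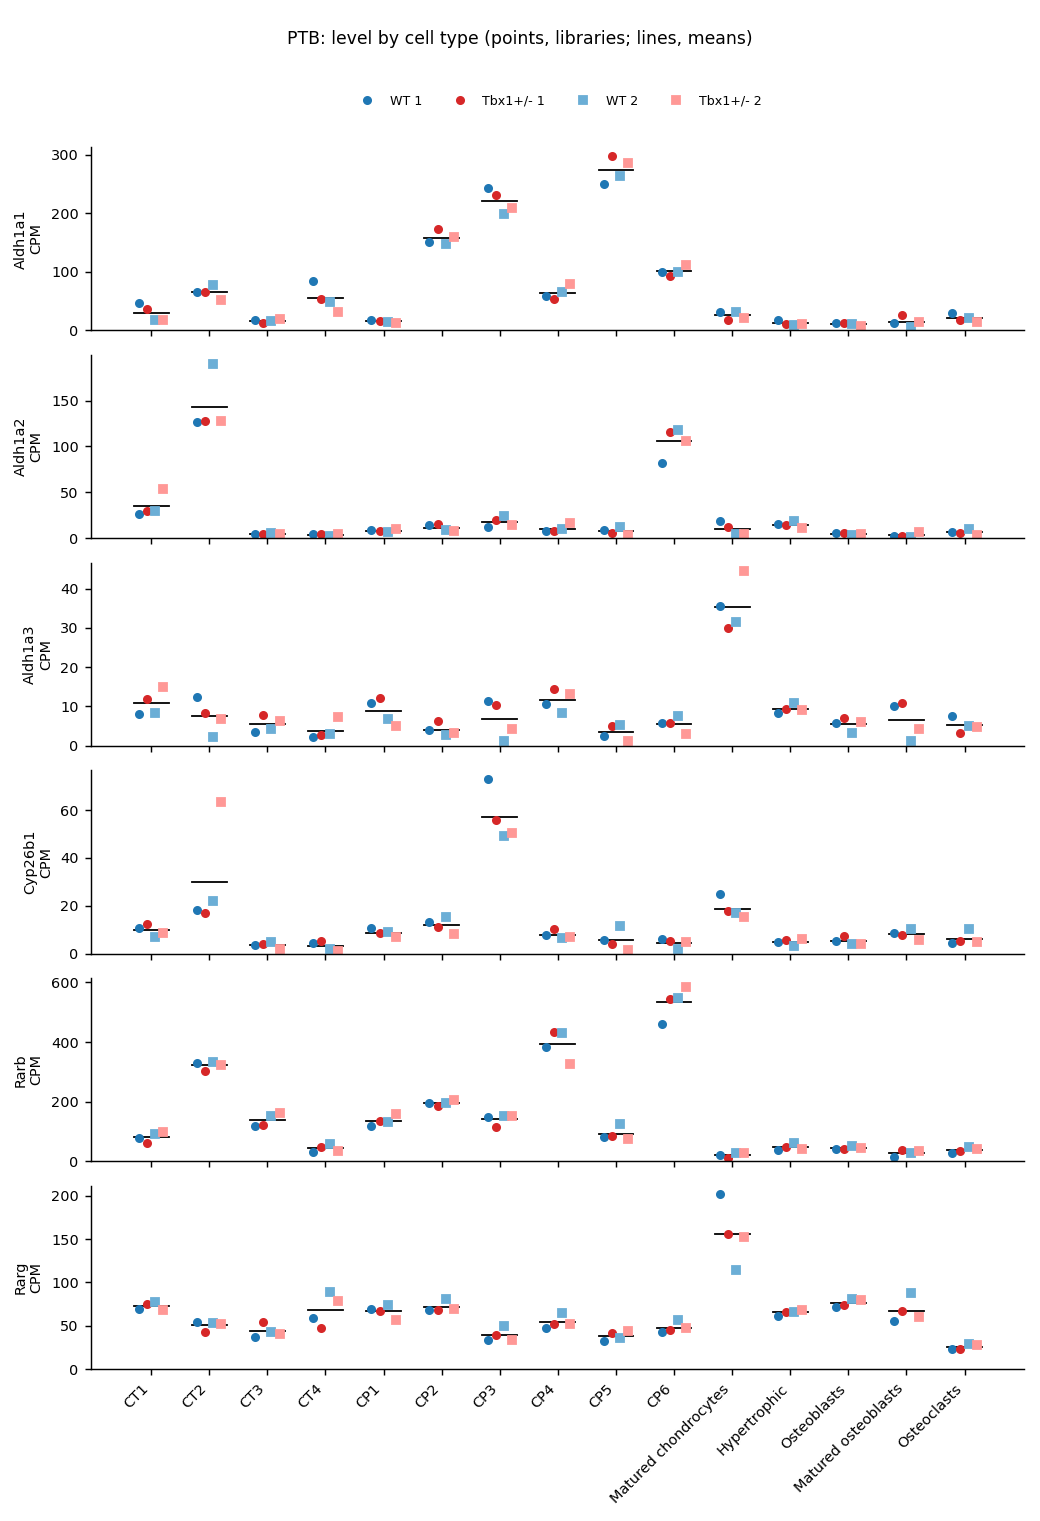
Levels in CPM of 6 members in the 15 annotated PTB cell types. Points are libraries (blue WT, red Tbx1+/-; circles and darker shade batch 1, squares and lighter shade batch 2) and lines are means of the 4 libraries. Aldh1a1 peaks in CP5, Aldh1a2 in CT2 and CP6, Aldh1a3 and Rarg in matured chondrocytes, Cyp26b1 in CP3, and Rarb in CP6; the raised CT2 mean of Cyp26b1 comes from Tbx1+/- 2 alone.

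In the PF/F, Cyp26b1 was highest in astroglia, and Aldh1a1 and Aldh1a2 were highest in meningeal nuclei, although astroglia also held Aldh1a1 and meningeal nuclei also held Cyp26b1. Cyp26b1 was at 901 and 962 CPM in the WT and 863 and 804 CPM in the Tbx1+/- libraries of astroglia, which made up 14.8% of annotated nuclei and held 85.7% of the gene's PF/F UMIs. GABA interneuron progenitors followed at 245, 263, 254 and 258 CPM in the same order, and early rhombic lip nuclei (RL.early) at 84.9 ± 32.5 CPM (SD, n = 4). Astroglia, interneuron progenitors and RL.early did not overlap each other. Differentiated granule neurons, the most numerous type, were at 8.99 CPM, and differentiated GABA interneurons at 13.7 CPM. The 4 astroglial markers Slc1a3, Gfap, Aqp4 and Hopx summed to a median of 850 CPM in interneuron progenitors and 967 CPM in RL.early, against 121 CPM in differentiated GABA interneurons and 3189 CPM in astroglia. Their part in the levels of those types was not tested. The most similar genes over 15 types were Gm31135 (r = 0.97), Atp13a4 (0.96) and Pdlim3 (0.95), each with its highest mean in astroglia.

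Aldh1a2 was concentrated in meningeal nuclei. These were at 131 and 137 CPM in the WT and 156 and 179 CPM in the Tbx1+/- libraries, and they held 76.2% of the gene's PF/F UMIs from 1.46% of the nuclei. Pericytes averaged 29.6 CPM, but all 8 UMIs came from 1 nucleus of WT 2. Every other PF/F type was at 4.65 CPM or less. Genes with the most similar pattern were Mpzl2 (r = 0.98), Foxd1 (0.97) and Gata6 (0.96). Aldh1a1 was also highest in meningeal nuclei, at 86.4 and 75.2 CPM in the WT and 58.2 and 64.5 CPM in the Tbx1+/- libraries, and it had a further peak in astroglia at 34.3 ± 4.48 CPM (SD, n = 4), without overlap. Aldh1a3 stayed at 4.30 CPM or less as a mean in all PF/F types.

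Rarb was also highest in meningeal nuclei, at 146 and 218 CPM in the WT and 165 and 197 CPM in the Tbx1+/- libraries. RL.early followed at 48.0 ± 13.5 CPM and granule neuron progenitors (GNP) at 20.8 ± 3.02 CPM (SD, n = 4 each), while astroglia were at 6.42 CPM. Cyp26b1 in meningeal nuclei was at 61.2, 62.2 and 64.5 CPM in WT 1, Tbx1+/- 1 and Tbx1+/- 2 and at 15.8 CPM in WT 2. The astroglial markers summed to 891, 1179.7, 1334 and 1265 CPM there, in the same order, so that WT 2 was not the lowest in this sum. Single markers differed: Slc1a3, most of the sum, was lowest in WT 1 at 803.09 CPM, and Aqp4 was lowest in WT 2 at 39.598 CPM. The part of astroglial RNA in the meningeal level of Cyp26b1 was not tested. Rarg was highest in vascular nuclei, with 25.5 CPM from 6 UMIs in pericytes and 21.5 CPM from 15 UMIs in endothelial nuclei, and stood at 9.62 ± 2.18 CPM (SD, n = 4) in Purkinje cells. Rara reached 16.3 ± 2.79 CPM (SD, n = 4) in meningeal nuclei. Its 4 highest types overlapped.

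Other retinoid genes were placed likewise. Meningeal nuclei held 41.7 ± 8.55 CPM (SD, n = 4) of Rdh10, against 17.7 CPM in astroglia. Astroglia held 116 ± 9.48 CPM (SD, n = 4) of Rxrg and 99.0 ± 4.63 CPM of Dhrs3, against 4.66 and 27.0 CPM in meningeal nuclei. Over 15 PF/F types, which share libraries and free RNA, Cyp26b1 had r = 0.71 with Aldh1a1 and r = 0.11 with Aldh1a2, and Aldh1a2 and Rarb had r = 0.71.

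**Figure D3:**
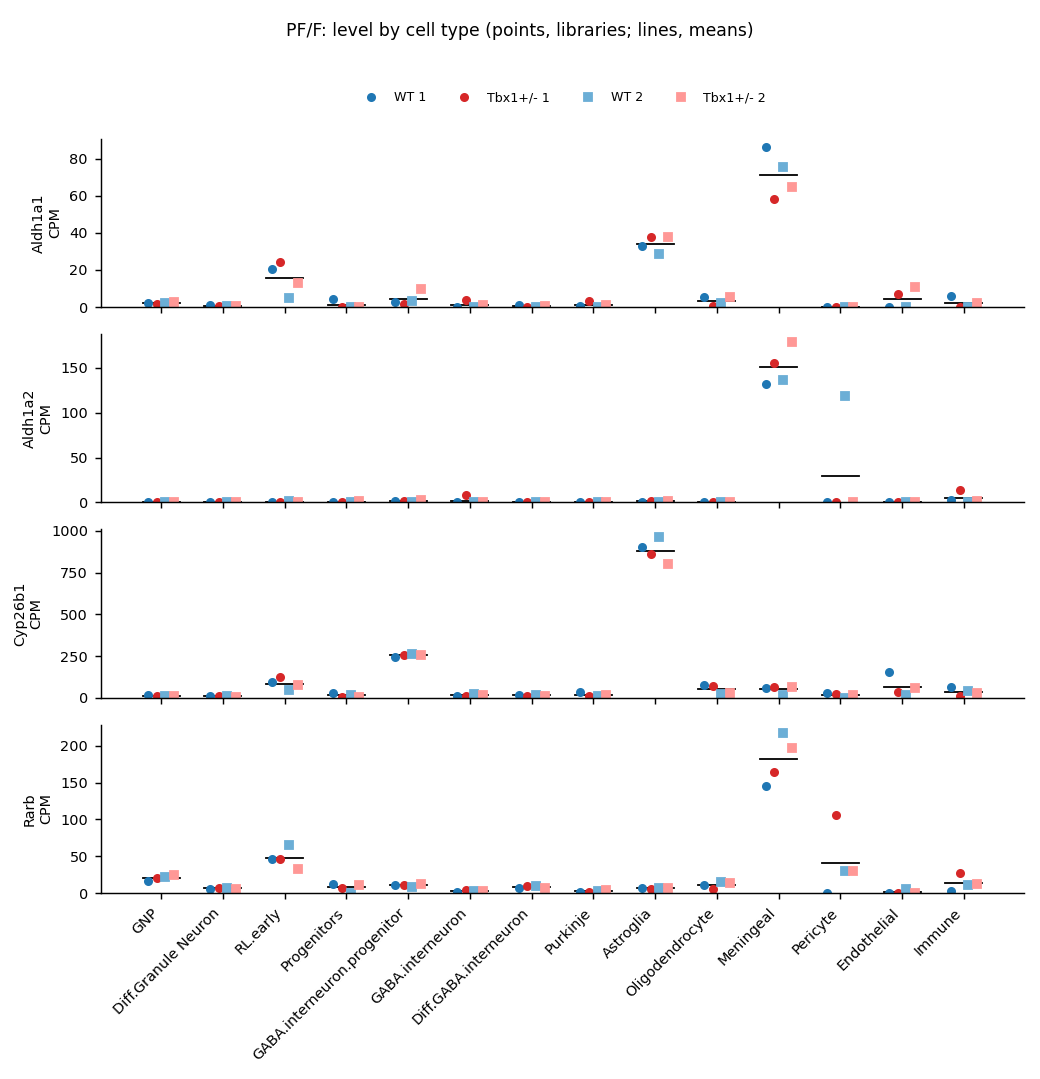
Levels in CPM of 4 members in 14 of the 16 annotated PF/F cell types, with points and lines as for the PTB plot. Aldh1a2 and Rarb peak in meningeal nuclei and Cyp26b1 in astroglia, with GABA interneuron progenitors between; the high pericyte point of Aldh1a2 is 8 UMIs of 1 nucleus.

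Between genotypes, no member was called in any of the 7 PTB classes, the 11 PF/F types with at least 100 nuclei in each library, or the sums of either tissue. Here the background share of genes called was 0 in each comparison except Purkinje cells, at 0.00778%. Of 104 member tests by edgeR, 7 (6.73%) had an unadjusted p under 0.05, against 1.26% of all 277656 gene tests, and the lowest adjusted p of a member was 0.999. DESeq2 also called 0 members, with 2 tests at an unadjusted p under 0.05. The tests share libraries and nuclei, and so are not independent. With 2 libraries per genotype the SEs of member log2 changes ran from 0.10 to 0.99, with a median of 0.28. A p that misses the threshold does not show equal levels.

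Of these 7, 6 are described here, and both that concern Cyp26b1 were lower in Tbx1+/-. In differentiated GABA interneurons it was at 18.8 and 17.1 CPM in WT and 8.72 and 10.2 CPM in Tbx1+/-, a log2 change of -0.89 (SE 0.25, unadjusted p = 0.0055, adjusted p = 1.00). Genotypes did not overlap. The 4 astroglial markers, from nuclei where Cyp26b1 is high, summed to 161 and 102 CPM in WT and 131 and 110 CPM in Tbx1+/- differentiated GABA interneurons. Those sums overlapped between genotypes. The mean Cyp26b1 level of these interneurons, 13.7 CPM, was near the 13.4 CPM of GNP and the 8.99 CPM of differentiated granule neurons. Astroglia held 882 CPM, and the part of free RNA in the change was not tested. In CP nuclei of the PTB, Cyp26b1 was at 17.2 and 15.2 CPM in WT and 13.0 and 11.1 CPM in Tbx1+/-, a change of -0.42 (SE 0.17, adjusted p = 1.00), and CP3, its main source, was 5.68% and 6.24% of nuclei in WT and 3.42% and 4.60% in Tbx1+/-. In sums of this kind, fewer nuclei of a type and less RNA per nucleus cannot be told apart. In CT the same gene was at 10.1 and 9.35 CPM in WT and 11.2 and 22.8 CPM in Tbx1+/-, a change of 0.78 (SE 0.38, adjusted p = 1.00). It rested on Tbx1+/- 2, whose CT2 nuclei held the 63.4 CPM given above, and without that library it was 0.19 (SE 0.29). Slc6a13 in CT was at 39.8 and 107 CPM in WT and 73.4 and 169 CPM in Tbx1+/-, and CT1 nuclei were 13.2% and 5.55% of PTB nuclei in WT and 10.1% and 1.84% in Tbx1+/-. The part of these shifts in the change was not tested.

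In astroglia, its richest type, Cyp26b1 changed by -0.14 (SE 0.22, adjusted p = 1.00). In meningeal nuclei it changed by 0.69 (SE 0.43, adjusted p = 1.00), and this was the only member call under any alternative: without WT 1 the change was 2.02 (SE 0.50, adjusted p = 0.0189, edgeR), since the remaining WT library was the low one of 15.8 CPM from 8 UMIs.

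Aldh1a1, Aldh1a2 and Rarb made up the other 4. Aldh1a2 over all annotated PF/F nuclei was at 2.28 and 2.52 CPM in WT and 3.73 and 3.40 CPM in Tbx1+/-, a log2 change of 0.59 (SE 0.18, adjusted p = 1.00). Meningeal nuclei, its source, were 1.26% and 1.34% of nuclei in WT and 1.64% and 1.55% in Tbx1+/-, and within them the gene changed by 0.32 (SE 0.25, adjusted p = 1.00). In PTB osteoclasts Aldh1a2 changed by -0.96 (SE 0.40, adjusted p = 1.00) at levels near those of other types low in the gene. In matured osteoblasts, Aldh1a1 was at 11.8 and 5.03 CPM in WT and 25.5 and 14.9 CPM in Tbx1+/-, a change of 1.14 (SE 0.48, adjusted p = 0.999), from 4 to 33 UMIs a library. Rarb there was at 15.1 and 26.4 CPM in WT and 36.3 and 33.2 CPM in Tbx1+/-, a change of 0.76 (SE 0.33, adjusted p = 0.999). The 5 chondrocyte markers in these nuclei summed to 1388 and 746 CPM in WT and 1076 and 871 CPM in Tbx1+/-, with overlap. Both means in matured osteoblasts, 14.3 CPM for Aldh1a1 and 27.7 CPM for Rarb, lay below the 20.7 and 38.0 CPM of osteoclasts. The part of free RNA in these changes was not tested.

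Aldh1a1 changed by 0.31 (SE 0.16, adjusted p = 1.00) in astroglia and by -0.40 (SE 0.27, adjusted p = 1.00) in meningeal nuclei. Cyp26a1 changed by -1.09 (SE 0.86, adjusted p = 1.00) over all PTB nuclei, from 126 UMIs, and by -1.11 (SE 0.31, adjusted p = 0.899) with the replicate block. Tbx1+/- was the lower library in both batches, at 0.814 against 1.65 CPM in batch 1 and 0.172 against 0.448 CPM in batch 2. Without WT 1 and without the block the value was 0.17 (SE 0.93), a fit that sets WT 2 of batch 2 against Tbx1+/- libraries of both batches. The share of CT1, the highest type for Cyp26a1, fell in the same order of libraries as the gene, from 13.2% in WT 1 to 10.1% in Tbx1+/- 1, 5.55% in WT 2 and 1.84% in Tbx1+/- 2, and its part in the change and in the batch pattern was not tested. Of the 31 related genes, 14 to 26 were tested in each comparison and 0 were called by edgeR, with at most 1 per comparison at an unadjusted p under 0.05. Meis2, a transcription factor that responds to retinoic acid, changed by -1.62 (SE 0.69, adjusted p = 1.00) in meningeal nuclei, and with the replicate block by -1.54 (SE 0.39, adjusted p = 0.0316), which passed the call rule.

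**Figure D4:**
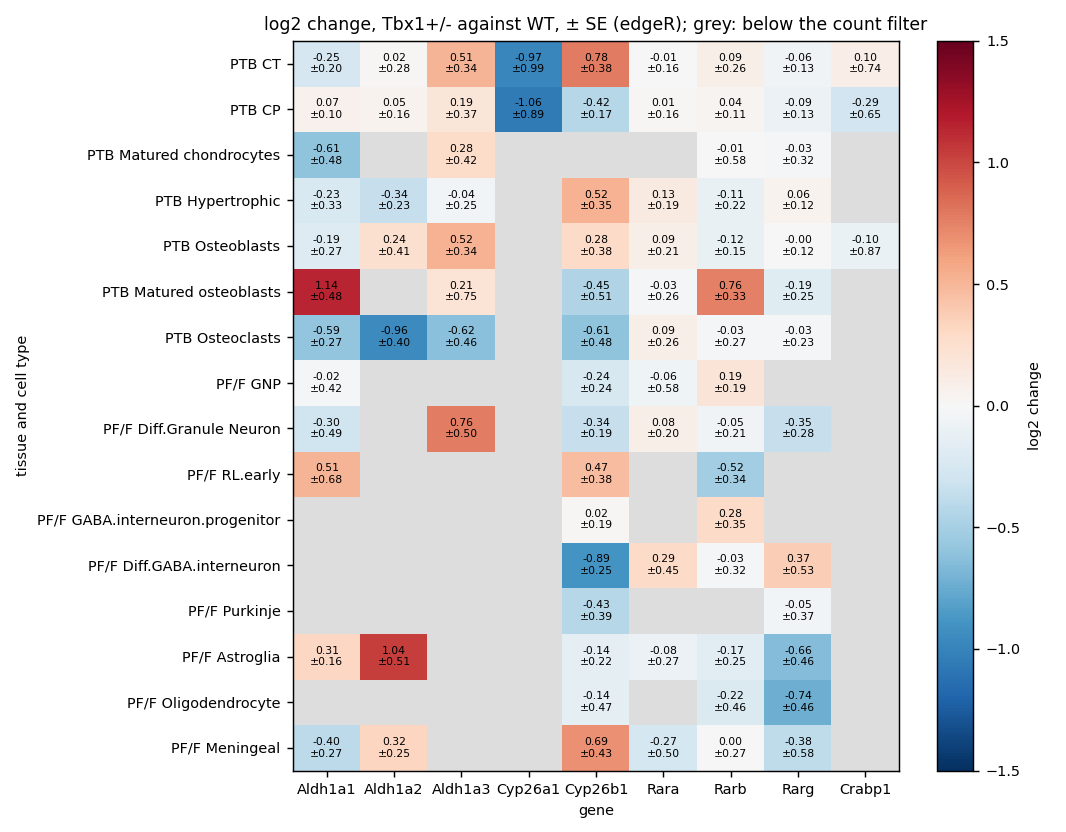
Log2 change of Tbx1+/- against WT with its SE from edgeR, for 9 members (columns) in 7 PTB classes and 9 of the 11 PF/F types tested (rows). Red is higher and blue lower in Tbx1+/-, and grey marks genes below the count filter. Changes lie between -1.06 and 1.14, none passes an adjusted p of 0.05, and Cyp26b1 takes both signs.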

How the data were processed

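Nuclei of 4 PTB and 4 PF/F libraries were profiled by 10x Genomics single-nucleus RNA-seq. The authors mapped reads to mm10 with Cell Ranger 7.0.0, introns included, and deposited raw UMI counts per barcode and their cell type annotation; both were used as deposited. The authors' correction for free RNA was not part of these counts, no doublet caller was run here, and 0 columns of other samples were used. For every library and type, the UMIs of its annotated nuclei were added up (CPM = UMIs per 1000000 of that sum). Sums were tested with edgeR 4.0.16 (quasi-likelihood, filterByExpr, TMM; R 4.3.3), and called at a Benjamini-Hochberg adjusted p under 0.05 over all genes tested and over 1.5-fold. The genotype fits had no covariate, and the tissue fit had genotype as one. Steps were tested on simulated counts. Same-numbered libraries come from the same experiment in the study's methods and deviated together (correlation 0.478 in PTB, 0.550 in PF/F), so the replicate block was fitted too.

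Alternatives were DESeq2 1.42.0, RLE size factors, no count filter, each library left out, the deepest 8% of nuclei left out, all barcodes and per-nucleus means. Likeness was Pearson's r of log2(mean CPM + 1) over types averaging at least 20 nuclei, among genes reaching 10 CPM. The 3 most alike genes are named for some members and tissues. Coordinates are GRCm38. Python 3.11.15, numpy 2.4.6, scipy 1.17.1, pandas 2.3.3 and matplotlib 3.10.9 were used. Members and gene lists were chosen with earlier results of these data known. Some values are not reported here. Intervals and limits of 3 counts cover counting error only.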

Additional observations from a re-analysis of the deposited data

Results flagged for a closer look

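Of 116 sets of 4 libraries with a mean of at least 10 CPM, 10 had a library far from the other 3 by Dixon's test, where chance alone flags about 1 in 20. Over all annotated PTB nuclei, WT 1 was high for Aldh1a1, at 69.5 CPM against 57.9 to 59.7, and for Cyp26b1, at 11.5 CPM against 9.58 to 9.85. Aldh1a2 was high in CT2 of WT 2, at 190.2 CPM against 127 to 128, and in CT1 of Tbx1+/- 2, at 53.1 CPM against 25.9 to 30.0 and from 118 nuclei. Aldh1a2 in PF/F pericytes was at 118 CPM in WT 2 and 0 elsewhere. Cyp26b1 was high in CT2 of Tbx1+/- 2, at 63.4 CPM against 16.9 to 21.9, and low in PF/F meningeal nuclei of WT 2, at 15.8 CPM against 61.2 to 64.5. The receptors were flagged in 3 sets: Rara in meningeal nuclei was low in Tbx1+/- 1, at 12.2 CPM against 17.4 to 18.0, Rarb in CP3 was low in Tbx1+/- 1, at 115 CPM against 149 to 153, and Rarg in CP2 was high in WT 2, at 80.9 CPM against 68.2 to 69.0.

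In both tissues, Aldh1a1 and Cyp26b1 had types with every Tbx1+/- library above every WT library and types with every one below. The type with the lowest unadjusted p on each side is given, and these differences were not tested. Among tested sets of a member and a type with a mean of at least 10 CPM, 4 lay above, 4 below and 25 overlapped in the PTB. In the PF/F 4 lay above, 5 below and 11 overlapped. With 2 libraries per genotype, such separation is common without any difference. The share over all genes at this level was not worked out, so these counts are no result about the members. Aldh1a1 in the PF/F had a log2 change of 0.31 in astroglia and -0.40 in meningeal nuclei, a difference of 0.71. In the PTB it had 1.14 in matured osteoblasts and -0.59 in osteoclasts, a difference of 1.73. Cyp26b1 had 0.69 in meningeal nuclei and -0.89 in differentiated GABA interneurons, a difference of 1.58, and 0.78 in CT and -0.42 in CP nuclei of the PTB, a difference of 1.20.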

How the results depend on the processing

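Under the alternatives, 193 counts of members called stayed equal or close to those reported, and 1 moved further. Small shifts within the 193 are not listed here. Leaving out 1 library at a time, the members called in PF/F meningeal nuclei ranged from 0 to 1: without WT 1, Cyp26b1 had a log2 change of 2.02 (SE 0.50, adjusted p = 0.0189, edgeR). Leaving out 1 library at a time, without the block, the log2 change of Cyp26a1 over all PTB nuclei ranged from -2.62 to 0.17, above 0 only without WT 1, where the remaining libraries were unbalanced over batches. The astroglial level of Cyp26b1, 882 CPM, was 988 as a mean over nuclei and 965 without the deepest nuclei. With the replicate block, 0 members were called, 15 of 104 tests had an unadjusted p under 0.05 against 4.31% of all tests, and the lowest adjusted p was 0.148. The block changed no member's call. Over all genes, calls per genotype comparison were 0 to 1 by edgeR, 0 to 1 by DESeq2, 0 to 17 without the count filter, 0 to 24 with the block and 0 to 206 with 1 library left out. Members with few UMIs, Cyp26a1, Cyp26c1 and Crabp1, are limited by depth in every type.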

Other observations

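Barcodes outside the annotation were grouped by the marker list with the most UMIs in them, at least 3, and values are given with exact Poisson intervals that cover counting error only. In the PTB, 830 barcodes led by chondrocyte markers held 345 CPM of Aldh1a1 (95% interval 331 to 359), with 297 to 379 CPM over the 4 libraries. A group of 792 barcodes led by neuronal markers held 82.0 CPM of Cyp26b1 (76.6 to 87.7), and 868 barcodes led by glial markers of bone held 33.8 CPM of Aldh1a3 (29.2 to 38.9). In 89 barcodes led by epithelial markers, Aldh1a2 was at 82.9 CPM (63.9 to 106). In the PF/F, 437 barcodes led by astroglial markers held 353 CPM of Cyp26b1 (333 to 373), below the 882 CPM of annotated astroglia.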
